A study of Homo sapiens with 36 samples.

Results

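The genes described here are the subunits of the transcription factor NF-kB and a group of its inhibitors and co-regulators, 10 genes in all out of 60725 genes quantified. They were listed by symbol, with earlier results of these data known. They are the subunit genes RELA, NFKB1, NFKB2, RELB and REL, the IkB inhibitor genes NFKBIA and NFKBIE, the nuclear IkB genes NFKBIZ and BCL3, and TNFAIP3, which encodes the ubiquitin-editing enzyme A20. RNA was sequenced in 36 libraries, 2 for each of 18 groups. Of these, 10 groups are MCF-10A ER-Src cells, a non-transformed human breast epithelial line with the v-Src oncoprotein fused to an estrogen receptor ligand-binding part, treated with tamoxifen (TAM), which activates the fusion, or with ethanol (ETH), its vehicle. The protocol adds AZD0530, a Src kinase inhibitor, to the tamoxifen, and the sources used here do not make clear for how long the sequenced cells were treated or whether ETH cells received AZD0530. All ER-Src groups carry the fusion, ETH cells included. The other groups are MDA-MB-231, a triple-negative human breast cancer line, without TAM.

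All cells received siRNA. In ER-Src cells, under each treatment, this was a control (Ctrli) or a pool against YAP (YAPi), TAZ (TAZi), STAT3 (STAT3i) or JUNB (JUNBi). In MDA-MB-231 cells, set 1 comprised Ctrli, YAPi, TAZi, YAPi_TAZi (both together) and TEADi (the TEAD family), and set 2 its own Ctrli, JUNBi and STAT3i. The sources used here do not say whether the 2 libraries of a group came from separate cultures, so the p-values measure the spread between these libraries, which may be technical.

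NF-kB is a family of dimers. In the canonical branch, RELA pairs with p50, the product of NFKB1, and is held in the cytoplasm by IkB proteins until the IKK kinases mark these for degradation. In the non-canonical branch RELB pairs with p52, which is cut from the NFKB2 product. NF-kB activates several of its own inhibitors, NFKBIA and TNFAIP3 among them, and this forms a feedback loop. BCL3 and the NFKBIZ product are IkB proteins that act in the nucleus on p50 or p52 dimers rather than in retention. In breast epithelial transformation NF-kB is studied as part of an inflammatory circuit with STAT3 and AP-1.

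Because these genes feed back on their own pathway, the stretches before their transcription start sites are shown, 5′ to 3′ on the strand of the gene, from RefSeq on GRCh38.p14. RefSeq windows were matched for 8 of the 10 genes; RELB and NFKBIE had none. The stretches of TNFAIP3, NFKBIA and BCL3, the inhibitors and co-regulator whose RNA differed between groups, run from 150 to 46 bases before the start. Capitals mark matches to the kappaB consensus.
TNFAIP3 (chr6:137867109-137867213, plus strand): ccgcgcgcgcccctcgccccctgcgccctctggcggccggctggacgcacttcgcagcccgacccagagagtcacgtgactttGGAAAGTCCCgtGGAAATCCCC
NFKBIA (chr14:35404795-35404899, minus strand): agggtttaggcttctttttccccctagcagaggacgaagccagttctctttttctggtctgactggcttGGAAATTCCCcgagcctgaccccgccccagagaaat
BCL3 (chr19:44748558-44748662, plus strand): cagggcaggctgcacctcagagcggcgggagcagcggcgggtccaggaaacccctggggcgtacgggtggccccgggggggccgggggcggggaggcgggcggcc
TNFAIP3 held 2 matches in this stretch, NFKBIA 1 and BCL3 none. The TNFAIP3 and NFKBIA stretches lie upstream of every GENCODE transcript of the gene, and the BCL3 stretch lies in an intron of at least 1.

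For the subunit genes and NFKBIZ, 30-base sites around a match are given, with the match again in capitals.
NFKB1 (chr4:102501300-102501329, plus strand): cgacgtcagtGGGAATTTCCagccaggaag
NFKB2 (chr10:102395674-102395703, plus strand): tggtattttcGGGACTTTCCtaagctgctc
REL (chr2:60881517-60881546, plus strand): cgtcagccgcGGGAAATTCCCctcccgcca
NFKBIZ (chr3:101827757-101827786, plus strand): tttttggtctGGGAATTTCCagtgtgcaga
RELA (chr11:65663945-65663974, minus strand): tttaagacgaaTTCAGAGAAaataaaaaag
The NFKB2 and REL sites overlap a UTR of at least 1 transcript. The capitals of RELA mark a STAT motif (TTCNNNGAA), since its windows held no kappaB match. Over the 250 bases before each start, on both strands, 8 of the 13 windows of these genes (in 6 of the 8 genes) held a kappaB match, against 9.96% of all 35116 RefSeq windows; overlapping matches count separately. The STAT motif occurred in 1 of the 13 windows (6.57% of all windows), the TEAD motif GGAATG in 1, of NFKB1 (11.9%), and the AP-1 motif TGANTCA in none (6.57%). A match is only a string of letters, and no binding was measured here.

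The basal epithelial markers KRT5, KRT14, KRT17, TP63 and CDH1 summed to between 1998 and 4229 TPM in ER-Src libraries. TPM is RSEM's unit of abundance, a scale corrected for gene length and for the size of the library. The same sum was at most 0.95 in MDA-MB-231 set 2 and at most 1.48 in the set 1 controls. In the set 1 knockdown libraries it ran from 0 to 19.8. The mesenchymal markers VIM, ZEB1, CD44 and SPARC summed to 1220 to 2176 TPM in set 2 and to 273 to 431 TPM in ER-Src. Their sum was 2979 to 3057 TPM in the set 1 controls and 528 to 1384 TPM in the set 1 knockdowns. SPARC itself was near absent in set 2, at 0 to 0.64 TPM. Depth ran from 6419720 to 19161700 expected counts in ER-Src and from 7290499 to 18076158 in set 2. In set 1 it was 13456784 and 13534560 in the controls but 1411304 to 2784605 in the 8 knockdown libraries. The set 1 knockdowns also differed from their controls in RNA composition: 7 RNAs without a poly(A) tail took 8.71% to 11.8% of their counts, and at most 0.00407% in the controls. The labels name 1 library kit for all samples and do not say why the composition differs. Composition and knockdown cannot be told apart in that comparison. In ER-Src, the median gene length less RSEM's effective length was 49.0 bases in every STAT3i and JUNBi library. It was 49.47 to 49.49 in the Ctrli, YAPi and TAZi libraries. The labels do not say why. In comparisons of STAT3i or JUNBi with Ctrli, this difference cannot be told apart from the knockdown. The targeted RNA had a negative log2 fold change in every ER-Src knockdown, from -2.66 (STAT3 in TAM) to -1.16 (JUNB in ETH, where the 2 libraries had 3.90 and 8.55 TPM). The last was not called (adjusted p = 0.064). In set 2 JUNB was at -2.04 with JUNBi (adjusted p = 2.1e-08). STAT3 was at -2.41 with STAT3i, without an adjusted p.

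In ER-Src cells the 10 genes spanned a wide range of levels. NFKBIA, the main canonical inhibitor, was the most abundant in every library, at 52.1 to 95.3 TPM. NFKB1 had 6.79 to 13.0 TPM, NFKB2 4.35 to 9.13, RELA 3.92 to 7.75, RELB 2.29 to 9.09, NFKBIZ 3.46 to 8.42 and TNFAIP3 2.25 to 8.96 TPM. The least abundant were BCL3 at 0.52 to 5.44 TPM, NFKBIE at 0.88 to 3.18 and REL at 0.70 to 1.36. BCL3 thus had the widest relative range, 10.5-fold from its lowest to its highest library, against 3.98-fold for TNFAIP3 and 1.83-fold for NFKBIA.

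**Figure D1:**
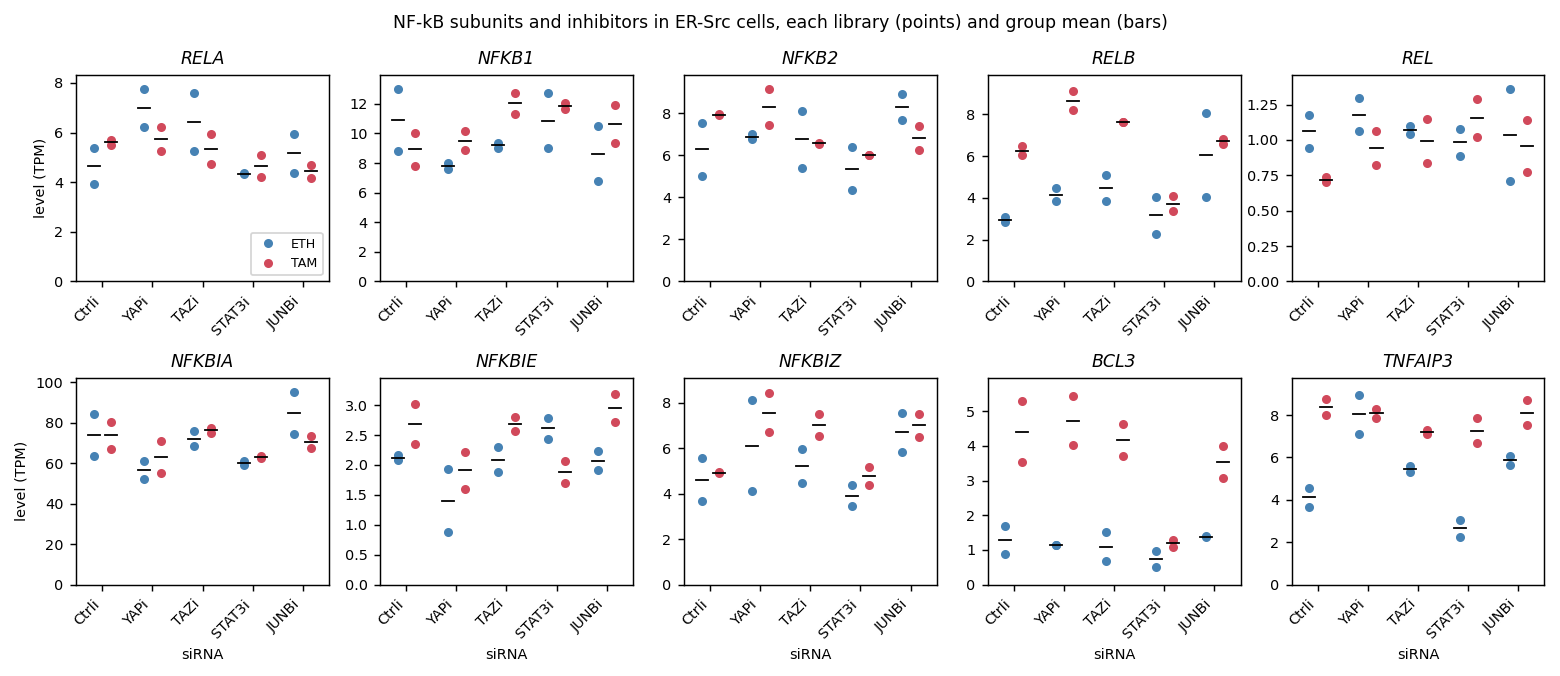
Levels of the 10 genes in ER-Src cells (y axis, TPM, linear from 0) for each siRNA (x axis), with ETH in blue and TAM in red. Points are the 2 libraries of a group and bars their mean. BCL3 is above 3 TPM in all TAM libraries except the 2 with STAT3i, which lie at 1.30 and 1.09.

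Groups were ordered by mean TPM for each gene. For BCL3 the TAM groups with YAPi, Ctrli, TAZi and JUNBi came first, with overlapping libraries among neighbours, and the gap from JUNBi in TAM (3.99 and 3.08 TPM) to JUNBi in ETH (1.40 and 1.36 TPM) was the only one between neighbours. STAT3i in TAM ranked 7th of 10, among the ETH groups. For RELB the same 4 TAM groups came first, and STAT3i in TAM ranked 8th. TNFAIP3 had a different order, with STAT3i in TAM and YAPi in ETH among the 6 highest groups, each of which overlapped its neighbour in the order. For RELA, NFKB1 and NFKBIZ no neighbours in the order were apart.

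To ask how v-Src activation changed these RNAs, TAM was compared with ETH under Ctrli. The co-regulator BCL3 rose most. BCL3 had 1.70 and 0.87 TPM in ETH and 5.29 and 3.53 TPM in TAM, a log2 fold change of 2.09 (SE 0.416, adjusted p = 1.7e-05). RELB, the non-canonical subunit, had 2.83 and 3.07 TPM in ETH and 6.04 and 6.46 TPM in TAM, 1.30 higher (SE 0.249, adjusted p = 5.9e-06). For both genes each TAM library lay above each ETH library.

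The feedback inhibitor TNFAIP3 had 4.55 and 3.68 TPM in ETH and 8.76 and 8.02 TPM in TAM, with no overlap. Its log2 fold change was 1.44 (SE 0.193, adjusted p = 5.0e-12), and it was called whichever library was left out. NFKBIA was also called, at 0.40 (SE 0.114, adjusted p = 0.0092), but its TPM overlapped between ETH (84.2 and 63.8) and TAM (80.2 and 67.3), and edgeR gave an adjusted p of 0.014. Its call was lost when any 1 library was left out, and with effective length offsets the adjusted p was 0.24.

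In all, 4 of the 10 genes rose with TAM and none fell, where 6.11% of 15934 genes tested were called in either direction and 4.56% as higher. The median log2 fold change of the 10 genes was 0.64, against -0.01 over all genes tested. RELA (0.64, adjusted p = 0.13), NFKB2 (0.64, adjusted p = 0.014) and NFKBIE (0.66, adjusted p = 0.37) had positive values that did not pass, and REL was at 0.05 (95% interval -0.60 to 0.70). In TPM the median gene was lower in TAM by 0.34 on the log2 scale, so TPM ratios between these groups sit below the count-based fold changes: the ratio of NFKB1 was -0.29 in TPM and its fold change 0.36 (adjusted p = 0.16). RELB and BCL3 each kept their call when 1 of the 4 libraries was left out and lost it for the other 3, with adjusted p between 0.012 and 0.090.

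STAT3 knockdown in TAM gave the opposite picture for several of these genes. Both comparisons use the same Ctrli TAM libraries, so the rise and the fall are not independent. BCL3 had 1.30 and 1.09 TPM with STAT3i, against 5.29 and 3.53 with Ctrli, and fell by 2.41 on the log2 scale (SE 0.404, adjusted p = 1.2e-07). RELB had 3.36 and 4.07 TPM against 6.04 and 6.46, a change of -1.09 (SE 0.240, adjusted p = 1.3e-04). Its non-canonical partner NFKB2 had 6.01 TPM in both STAT3i libraries and 7.89 and 7.94 with Ctrli, a change of -0.72 (SE 0.191, adjusted p = 0.0027). NFKBIA had 62.4 and 63.4 TPM against 80.2 and 67.3, a change of -0.60 (SE 0.125, adjusted p = 5.6e-05). In each of these genes both STAT3i libraries were below both Ctrli libraries.

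Thus 4 genes fell and none rose with STAT3i in TAM (8.09% of 14470 genes tested were called in either direction and 4.8% as lower). All 10 count-based fold changes were below 0, with a median of -0.63 against 0.03 over all genes tested. In TPM the median gene was 0.42 higher on the log2 scale with STAT3i. The TPM ratios of NFKB1 (0.405) and REL (0.68) were above 0, against fold changes of -0.33 and -0.08, neither called. The other members were below 0 in TPM as well. TNFAIP3, the gene with the firmest TAM response, was not called at -0.56 (SE 0.181, adjusted p = 0.020), with 7.84 and 6.67 TPM. RELA was at -0.66 (adjusted p = 0.079). JUNB RNA, which STAT3i does not target, was lower as well (log2 fold change -2.41). The NFKB2 call was lost with the replicate block (adjusted p = 0.044) and with 1 fit over all groups (0.025). RELB lost its call with 1 fit over all groups (0.013). BCL3 and NFKBIA kept theirs in all 6 alternative settings. With 1 library left out BCL3 kept its call in 3 of 4 cases, and lost it without the first Ctrli library (adjusted p = 0.015); RELB, NFKB2 and NFKBIA lost theirs in all 4.

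Without v-Src activation the same knockdown gave no call. In ETH, STAT3i left BCL3 at 0.52 and 0.96 TPM against 1.70 and 0.87 with Ctrli (-1.06, SE 0.730), and RELB at 2.29 and 4.05 TPM against 2.83 and 3.07 (-0.05, SE 0.384). No member was called among 18444 genes tested, of which 0.201% were, and none had an unadjusted p under 0.05 or was called by edgeR. STAT3 RNA itself was at -1.88 on the log2 scale.

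Knockdown of the co-activator YAP in TAM called none of the 10 genes, although 10.9% of 14182 genes tested were called. At an unadjusted p under 0.05 there was 1, NFKBIZ, and edgeR called none. NFKBIZ had 8.42 and 6.71 TPM with YAPi and 4.95 and 4.91 with Ctrli, a change of 0.68 (SE 0.216, adjusted p = 0.015). The 95% intervals were -0.23 to 0.24 for NFKBIA, -0.21 to 0.58 for RELB and -0.48 to 0.73 for BCL3, so that falls of the size seen with STAT3i lie outside them. NFKBIE, an IkB inhibitor of low abundance here, had 2.22 and 1.60 TPM with YAPi against 3.02 and 2.35 with Ctrli (-0.65, SE 0.342, adjusted p = 0.21), and in ETH 1.93 and 0.88 TPM against 2.08 and 2.16 (-0.56, SE 0.393, adjusted p = 0.39); neither was called.

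TAZi in TAM also called none (3.53% of 13442 genes tested), with 4 genes at an unadjusted p under 0.05 and 0 by edgeR. JUNBi in TAM called none either (6.71% of 13375), with 1 gene at an unadjusted p under 0.05 and 0 by edgeR. Their fold changes ran from -0.37 to 0.41 and from -0.55 to 0.26. RELB had 7.63 and 7.64 TPM with TAZi and 6.81 and 6.60 TPM with JUNBi, a little above the 6.04 and 6.46 TPM of Ctrli, while its fold changes were 0.08 and -0.02. These knockdowns share their Ctrli libraries with YAPi and STAT3i.

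**Figure D2:**
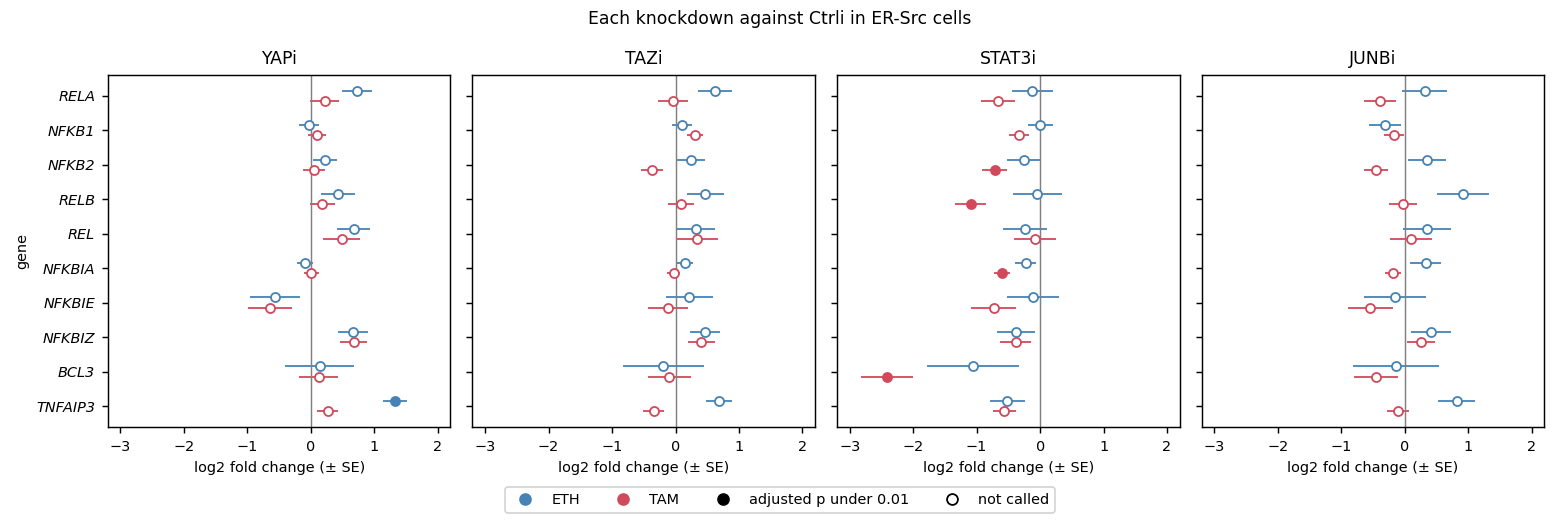
Log2 fold change with its SE (x axis) of each gene (y axis) in each knockdown against Ctrli, in ETH (blue) and TAM (red), from DESeq2; filled points had an adjusted p under 0.01. Filled points occur for NFKB2, RELB, NFKBIA and BCL3 with STAT3i in TAM and for TNFAIP3 with YAPi in ETH.

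In ETH, YAP knockdown raised TNFAIP3 to about the level it has in TAM. TNFAIP3 had 8.96 and 7.11 TPM with YAPi and 4.55 and 3.68 with Ctrli, 1.33 higher on the log2 scale (SE 0.187, adjusted p = 9.8e-11). It kept its call in all 6 alternative settings and whichever library was left out. It was the only 1 of the 10 genes called, where 11.4% of 15005 genes tested were, 5.03% as higher. RELA had 6.21 and 7.75 TPM with YAPi and 5.37 and 3.92 with Ctrli (0.73, adjusted p = 0.019), and NFKBIZ 8.10 and 4.13 TPM against 5.56 and 3.68 (0.66, adjusted p = 0.030).

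TAZi in ETH had TNFAIP3 at 5.32 and 5.59 TPM, above both Ctrli libraries, with a change of 0.68 (SE 0.210, adjusted p = 0.017). No member was called (5.53% of 13253 genes tested), 2 had an unadjusted p under 0.05, and edgeR called TNFAIP3 alone (adjusted p = 0.0099). Of 6 alternative settings 3 called TNFAIP3. With effective length offsets its change was 0.42 (adjusted p = 0.27), and the replicate block gave an adjusted p of 0.17. JUNBi in ETH had TNFAIP3 at 6.06 and 5.66 TPM (0.82, adjusted p = 0.078) and RELB at 4.04 and 8.06 TPM (0.91, adjusted p = 0.25). None was called there (2.76% of 15234), with 2 genes at an unadjusted p under 0.05 and 0 by edgeR. The RELB libraries of that group differed by more than Ctrli and JUNBi did.

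The TAM response was then measured within each knockdown. BCL3 rose with TAM under YAPi (1.14 and 1.14 TPM in ETH, 5.44 and 4.03 in TAM; 2.05, SE 0.346, adjusted p = 2.1e-07) and under TAZi (0.67 and 1.52 TPM in ETH, 4.64 and 3.72 in TAM; 2.16, SE 0.459, adjusted p = 5.8e-05). Under JUNBi its change was 1.74 (SE 0.517, adjusted p = 0.029), and under STAT3i 0.71 (95% interval -0.75 to 2.17). RELB rose by 1.03 under YAPi (SE 0.204, adjusted p = 2.3e-05) and by 0.89 under TAZi (SE 0.239, adjusted p = 0.0032), and had 0.23 under STAT3i (95% interval -0.51 to 0.97).

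TNFAIP3 showed the reverse arrangement. Under STAT3i it had 2.25 and 3.06 TPM in ETH and 7.84 and 6.67 TPM in TAM, 1.37 higher (SE 0.254, adjusted p = 2.4e-05), although edgeR gave an adjusted p of 0.056 and the call was lost in 2 of 4 cases with 1 library left out. Under YAPi, where the ETH libraries were already at 8.96 and 7.11 TPM, the TAM libraries had 8.30 and 7.86 TPM and the change was 0.35 (SE 0.161, adjusted p = 0.30). Under TAZi it was 0.39 (adjusted p = 0.18) and under JUNBi 0.47 (adjusted p = 0.81).

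**Figure D3:**
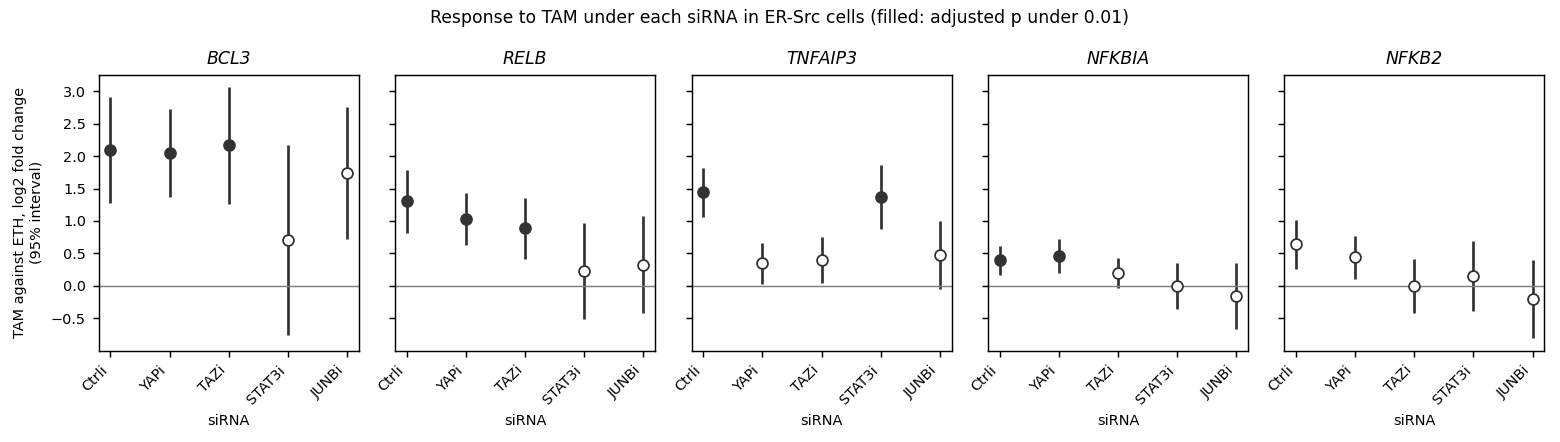
Log2 fold change of TAM against ETH (y axis) with its 95% interval for 5 genes under each siRNA (x axis), from DESeq2; filled points had an adjusted p under 0.01. BCL3 and RELB have filled points under Ctrli, YAPi and TAZi, and TNFAIP3 under Ctrli and STAT3i.

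Under YAPi 3 of the 10 genes were called, all higher in TAM (RELB, BCL3 and NFKBIA, the last at 0.46 with an adjusted p of 0.0099), where 4.31% of 17222 genes tested were called, 3.23% as higher. Under TAZi there were also 3 (RELB, BCL3 and NFKB1), with 7.34% of 15362 genes called, 4.51% as higher. NFKB1, which encodes p105 and p50, had 9.39 and 9.01 TPM in ETH and 11.3 and 12.8 in TAM there (0.54, SE 0.140, adjusted p = 0.0019). Under STAT3i 1 was called (0.813% of 15254, and 0.741% as higher), and under JUNBi none (2.12% of 17240), with 1 gene at an unadjusted p under 0.05 and 0 by edgeR. Under YAPi the NFKBIA call was lost with edgeR (0.049) and effective length offsets (0.30), and NFKBIA and RELB lost theirs whichever library was left out. Under TAZi, NFKB1 and RELB lost their calls with the replicate block (0.024 and 0.035) and whichever library was left out. BCL3 kept its call in 3 of 4 such cases under YAPi and in 1 of 4 under TAZi.

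Whether a response differed between a knockdown and Ctrli was tested as an interaction. For TNFAIP3 the TAM response was smaller under YAPi than under Ctrli, with a difference of -1.08 on the log2 scale (95% interval -1.52 to -0.63, adjusted p = 7.1e-04). It was the only 1 of the 10 genes called for YAPi (0.496% of 15721 genes tested, and 0.318% as lower), and edgeR gave an adjusted p of 0.030. The call was lost when any of 5 of the 8 libraries was left out, with an adjusted p between 0.017 and 0.056. Under TAZi the difference was -1.04 (SE 0.244), with an unadjusted p of 1.8e-05 and no adjusted p, since only 2 of the 10 genes entered the adjustment in that run; with a mean count of at least 10 the adjusted p was 0.0010, and with edgeR 0.036. None of the 10 was called there (1.64% of 4328 genes tested), with 3 at an unadjusted p under 0.05 and 0 by edgeR. Under JUNBi it was -0.95 (SE 0.292, adjusted p = 0.15, and 4.0e-04 with 1 fit over all groups).

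For STAT3i no interaction was called (1.57% of 14600 genes tested), with 2 genes at an unadjusted p under 0.05 and 0 by edgeR. BCL3 was at -1.36 (95% interval -2.73 to 0.003, adjusted p = 0.67) and RELB at -1.06 (95% interval -1.94 to -0.19, adjusted p = 0.35), so a smaller TAM response of these genes under STAT3i was not established, nor was an equal one. Without the first STAT3i library in ETH, which had 2.29 TPM of RELB against 4.05 in the second, RELB was called (-1.50, adjusted p = 0.0052), and without the second it was at -0.45 (adjusted p = 0.9999). TNFAIP3 was at -0.06 (95% interval -0.63 to 0.51). For JUNBi no member was called (0.287% of 16037), with 4 genes at an unadjusted p under 0.05 and 0 by edgeR. Without its first ETH library these 4 were called, all with a smaller TAM response under JUNBi (NFKB2 -1.10, NFKBIA -0.76, RELB -1.44 and TNFAIP3 -1.06). Without its second ETH library none of the 4 was called, and the values were -0.49, -0.28, -0.26 and -0.85. The size of the differences of NFKB2, NFKBIA and RELB thus rests on which of the 2 ETH libraries is kept. That of TNFAIP3 changed less.

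The upstream and downstream genes of the pathway were followed as 4 lists. Among 40 target genes that NF-kB is known to activate, 28 were tested for TAM under Ctrli, of which 15 rose and 1 fell (6.11% of all genes tested were called), with a median of 0.85. The acute-phase genes SAA2 (3.90, SE 0.305) and SAA1 (2.32, SE 0.127) and the chemokine gene CCL20 (2.48, SE 0.216) led. With STAT3i in TAM 8 of 28 fell and 1 rose (8.09% of all genes; median -0.50); SAA2 was at -2.79, SAA1 at -1.61 and the adhesion gene ICAM1 at -1.25. With YAPi, in contrast, 12 of 28 rose and none fell in TAM (10.9% of all genes; median 0.59), and 9 of 27 rose in ETH (11.4% of all genes), where the chemokine genes CXCL8 (1.68, SE 0.211) and CCL20 (1.58, SE 0.234) and the pentraxin gene PTX3 (1.84, SE 0.532) led. With TAZi in TAM 9 of 28 rose and 2 fell (3.53% of all genes), and with JUNBi in TAM 11 of 29 rose and 3 fell (6.71%), CXCL8 among them (-1.56, SE 0.215). The medians over all genes tested in these comparisons lay between -0.01 and 0.03.

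Of the receptors and ligands that feed the pathway, 5 of 15 rose with TAM under Ctrli and none fell (6.11% of all genes were called). They include both chains of the interleukin-1 receptor, IL1R1 (1.99, SE 0.228) and IL1RAP (2.38, SE 0.166), and TLR4 (1.38, SE 0.268). With STAT3i in TAM 5 of 15 fell and 1 rose (8.09% of all genes), and IL1RAP fell by 1.86 and IL1R1 fell by 1.47. IL1RAP was lower in TAM with the other knockdowns too, at -0.997 with YAPi, -0.54 with TAZi and -1.25 with JUNBi, whereas IL1R1 was higher with YAPi (1.32) and TAZi (0.94). The response of IL1RAP to TAM was smaller under STAT3i than under Ctrli (-2.13, SE 0.267, adjusted p = 9.9e-13), and also under YAPi (-0.93, SE 0.228, adjusted p = 0.0088). YAPi raised the ligand gene IL1A in TAM (1.72, SE 0.232) and in ETH (1.56, SE 0.388), and JUNBi lowered IL1B in TAM (-2.50, SE 0.179) and in ETH (-1.77, SE 0.334).

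Most of the 31 adaptor and kinase genes were not called: 2 rose and 1 fell with TAM under Ctrli, where 6.11% of all genes were called, and none was called with STAT3i in TAM (8.09%). BIRC3, a ubiquitin ligase of the TNF receptor complex, rose with TAM (0.78, SE 0.147) and was higher with YAPi in TAM (0.97, SE 0.127) and in ETH (0.94, SE 0.150), with JUNBi in TAM (1.06, SE 0.141) and in ETH (1.62, SE 0.262), and with TAZi in TAM (0.66, SE 0.112). Among 16 other regulators the RNase gene ZC3H12A rose with TAM by 1.71 (SE 0.163) and fell by 2.02 with STAT3i in TAM, and the deubiquitinase gene CYLD was higher in TAM with YAPi (0.94, SE 0.154), JUNBi (1.44, SE 0.155) and STAT3i (0.71, SE 0.173).

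In MDA-MB-231 cells of set 2 the relative levels were different from those of ER-Src. NFKBIE, at 91.7 to 127 TPM, was the most abundant of the 10 genes. RELA had 49.8 to 67.4 TPM, NFKB2 41.6 to 78.0 and RELB 44.9 to 58.2, all above every ER-Src library. NFKB1 had 1.99 to 6.08 TPM and TNFAIP3 0.48 to 1.60, both below every ER-Src library, and REL was at 0.06 to 0.26. These libraries also differ from those of ER-Src in RNA composition, so no test was made between them, and these are levels side by side. The set 1 controls, of the same line, had other levels. There NFKBIA was highest (144.7 and 138.8 TPM), with NFKBIE at 47.6 and 48.9. NFKB1 (23.1 and 21.1) and TNFAIP3 (12.2 and 15.5) lay above every ER-Src library, as did RELA, NFKB2 and RELB. The order given for set 2 is thus not shown to be a trait of the line.

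Knockdown of JUNB or STAT3 in set 2 called none of the 10 genes. For JUNBi 3.99% of 7187 genes tested were called, 1 of the 10 genes had an unadjusted p under 0.05, and edgeR called 0. That gene, NFKBIA, had 73.6 and 76.9 TPM with JUNBi against 46.9 and 33.8 with Ctrli, with no overlap (0.59, 95% interval 0.17 to 1.02, adjusted p = 0.060). In TPM the median gene was itself 0.24 higher on the log2 scale with JUNBi. For STAT3i 0.237% of 4639 genes were called, with 0 of the 10 genes at an unadjusted p under 0.05 and 0 by edgeR. RELB was at -0.08 (95% interval -0.54 to 0.37) with 44.9 and 51.9 TPM, NFKB2 at -0.22 (95% interval -0.60 to 0.15) with 47.4 and 48.3 TPM, and BCL3 at -0.46 (95% interval -1.05 to 0.13) with 12.4 and 12.2 TPM. The difference between these values and those in ER-Src was not tested. Among target genes PTX3 (1.40, SE 0.366) and CXCL1 (1.15, SE 0.244) rose with JUNBi.

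**Figure D4:**
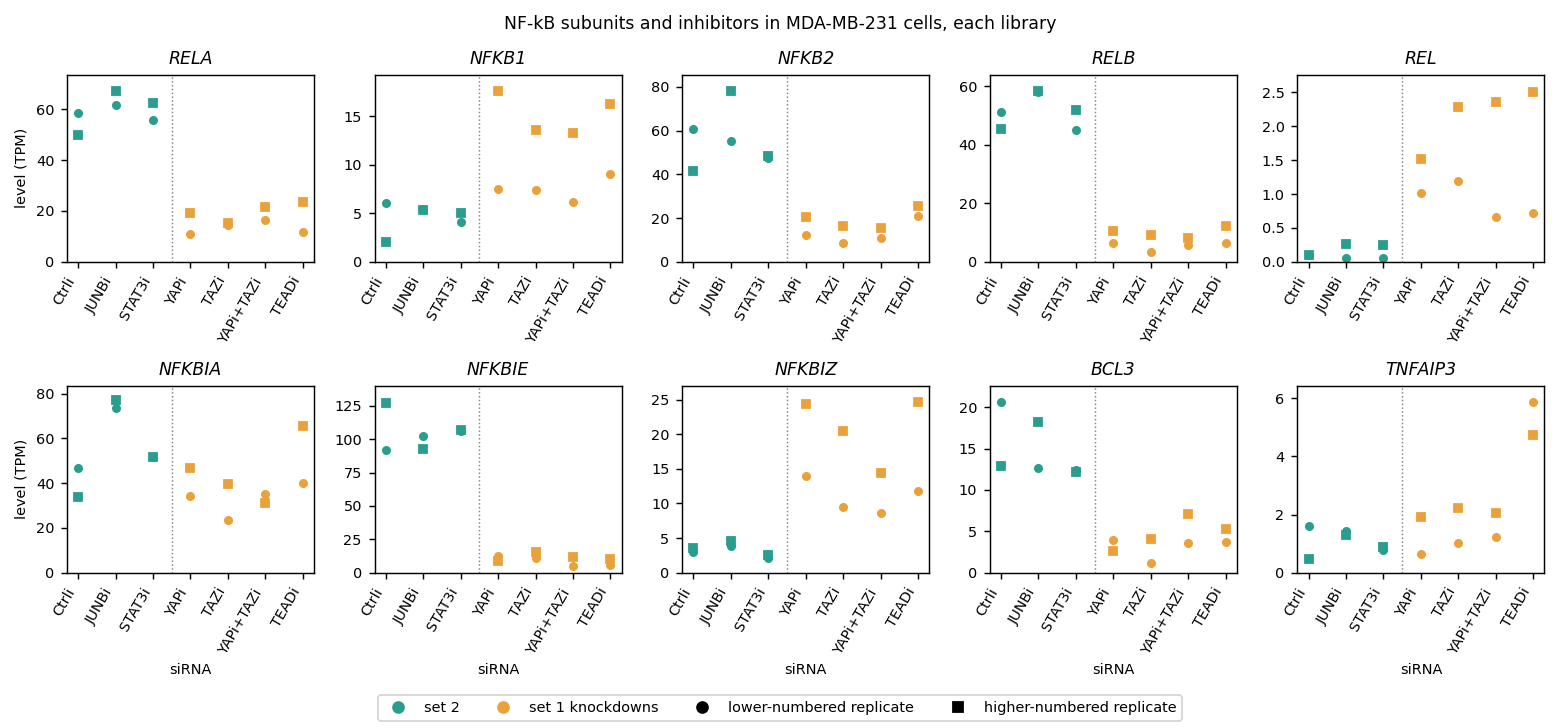
Levels of the 10 genes in MDA-MB-231 cells (y axis, TPM, linear from 0) in set 2 (green) and the set 1 knockdowns (orange) for each siRNA (x axis); each point is 1 library, with squares for the higher-numbered replicate. The TEADi libraries have 5.86 and 4.73 TPM of TNFAIP3, above all other libraries shown.

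In set 1 the knockdowns were compared with each other, each against the mean of the other 3, because they are alike in RNA composition. Such a contrast does not tell a rise in 1 knockdown from a fall in the others. YAP1 was lower with YAPi (-1.94) and YAPi_TAZi (-1.94). WWTR1, which encodes TAZ, was lower with TAZi (-2.97) and YAPi_TAZi (-1.36). With TEADi, TEAD1 (-1.22), TEAD2 (-3.41) and TEAD4 (-4.78, without an adjusted p) were lower. TEAD3 was at -0.255 (adjusted p = 0.75), so it was not shown to be lower than in the other knockdowns. The replicate number here coincides with a difference in effective length. The median gene length less effective length was 48.0 bases in every first replicate and 74.6 in every second. A fit with the replicate number as a block is given beside each call among the 10 genes. With TEADi 3 of the 10 genes were higher than in the other knockdowns (7.79% of 10729 genes tested were called, and 3.89% as higher). TNFAIP3 had 5.86 and 4.73 TPM with TEADi, against 0.65 to 2.23 TPM in the other knockdown libraries, a change of 1.50 (SE 0.432, adjusted p = 0.0071, and 0.0025 with the block). NFKB2 (20.7 and 25.3 TPM) was 0.66 higher (SE 0.178, adjusted p = 0.0035, and 1.8e-04 with the block). NFKBIA (40.1 and 65.7 TPM) was 0.64 higher (SE 0.170, adjusted p = 0.0029, and 3.6e-05 with the block). Of the target genes 8 of 27 were higher with TEADi and none lower, IL6 (0.85, SE 0.165) and TNFAIP2 (1.07, SE 0.178) among them. IL6 was further above the other knockdowns with TAZi (1.70, SE 0.159) and below them with YAPi (-1.52, SE 0.188). With YAPi_TAZi 2 of 27 target genes were higher and 10 lower (6.07% of all genes were called). With YAPi 6 were higher and 4 lower (6.32%), and with TAZi 2 and 2 (6.25%). The target genes are thus not shown to be raised by TEADi itself.

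With YAPi_TAZi, NFKBIZ was lower than in the other knockdowns, at 8.57 and 14.3 TPM (-0.83, SE 0.196, adjusted p = 7.1e-04, and 2.7e-05 with the block), the only member called there (6.07% of 11209 genes tested, and 3.82% as lower). None was called for YAPi (6.32% of 9767), with 1 gene at an unadjusted p under 0.05, or for TAZi (6.25% of 10729), with 3, and edgeR called 0 in both. These libraries held at most 2784605 counts each. The 3 TEADi calls were lost with TMM size factors (adjusted p between 0.034 and 0.062) and with a mean count of at least 10 (0.011 to 0.016). NFKBIA also lost its call with edgeR (0.012). With effective length offsets NFKB2 (0.012), NFKBIA (0.11) and NFKBIZ (0.084) lost theirs, and TNFAIP3 kept its call (0.0082). With 1 of the 8 libraries left out, each of these genes lost its call in most fits, and TNFAIP3 in all. In most of its fits TNFAIP3 had no adjusted p. The fold changes then ran from 1.16 to 1.75 for TNFAIP3 and from 0.61 to 0.70 for NFKB2. They ran from 0.57 to 0.70 for NFKBIA and from -0.86 to -0.79 for NFKBIZ.

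Against the set 1 controls 26 of 40 values were called, 7 higher and 19 lower, where 30.2% of all gene values tested over the 4 comparisons were called. BCL3 had 31.7 and 34.8 TPM in these controls and 1.20 to 7.08 TPM in the 8 knockdown libraries, and RELA 65.5 and 67.0 against 10.8 to 23.4. With the controls of both sets in the fit only 5 of the 40 were called. Against the set 1 controls alone, TNFAIP3 was at -0.53 with TEADi (adjusted p = 0.24) and between -2.19 and -1.93 with the other knockdowns. In the same runs NFKBIZ was at -0.08 with YAPi_TAZi (adjusted p = 0.71) and between 0.50 and 0.90 with the others. Since RNA composition and knockdown cannot be told apart in this comparison, no direction is drawn from it.

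For each gene the most similar profile was found among 10011 expressed genes, by Pearson's r of mean log2(TPM + 1) over the 10 ER-Src groups. BCL3 was closest to TLCD2 (r = 0.97), RELB to TAP1 (0.97), NFKBIZ to TRANK1 (0.96), RELA to ITPR3 (0.95) and REL to RNF139 (0.94). NFKBIA was closest to EFNA5 (0.93), NFKBIE to DHRS13 (0.92), TNFAIP3 to KRT17 (0.91), NFKB1 to BIN3 (0.91) and NFKB2 to ITPRIPL2 (0.89). Within the family the highest r was that of RELB with BCL3 (0.87), and the lowest that of NFKB1 with RELA (-0.73). These groups share libraries' scaling, and the highest of many values is high by selection.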

How the data were processed

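The authors' labels give the TruSeq Ribo Profile kit for all libraries. The authors ran STAR against transcripts of GENCODE version 30, keeping up to 20 alignments per read, and quantified genes with RSEM. The deposited values are RSEM's expected counts for each gene, without normalization, TPM, which the authors' RSEM run corrected for effective length and scaled to a fixed total per library, and the gene's length and effective length. Whether strand was used in counting is not given in the sources used here. NFKBIZ overlaps NXPE3 on the same strand, and RELA and TNFAIP3 overlap antisense RNAs (RELA-DT and WAKMAR2), so their reads could be shared. RefSeq annotation on GRCh38.p14 supplied promoter windows.

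Expected counts were rounded and compared with DESeq2 (version 1.42.0 in R 4.3.3; Wald test, default size factors, Benjamini-Hochberg adjusted p under 0.01), over all genes, with a separate run for each comparison, after the study's methods. The interaction used the 8 libraries concerned. In 1 run (YAPi_TAZi against the set 1 Ctrli) and in the fit of the set 1 knockdowns the tool used a local dispersion trend. Intervals are fold change ± 1.96 SE. Log2 fold changes are count-based unless TPM is named. The functions were tested on simulated counts. Alternatives were edgeR (version 4.0.16), TMM size factors, a mean count of at least 10, effective length offsets, the replicate number as a block, 1 fit over all groups, the controls of both sets, TPM without 7 RNAs, and leaving out each library.

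The 10 genes, the pathway lists, the rules and the alternatives were chosen with earlier results of these data known. Named genes are the 10 members, the targeted genes, up to 3 called genes per list with the largest change (mean count of at least 100; up to 2 in MDA-MB-231), and the most similar gene of each member. Of 60725 Ensembl genes, 93.1% matched GENCODE version 44, which supplied symbols; 1 of the 40 target genes, SOD2, was not matched and is not used here. Depth was 1411304 to 19161700 expected counts per library.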

Additional observations from a re-analysis of the deposited data

Results flagged for a closer look

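The response of TNFAIP3 to TAM differed between YAPi and Ctrli in ER-Src cells by a test of the difference itself, an interaction of -1.08 on the log2 scale (SE 0.228, DESeq2 adjusted p = 7.1e-04). Both TAM groups were alike in level, at 8.76 and 8.02 TPM with Ctrli and 8.30 and 7.86 TPM with YAPi. The ETH groups were apart, at 4.55 and 3.68 TPM with Ctrli and 8.96 and 7.11 TPM with YAPi. The call was lost with edgeR (adjusted p = 0.030) and in 5 of the 8 cases with 1 library left out. The same difference was -1.04 with TAZi, with no adjusted p there but 0.0010 with a mean count of at least 10, and -0.95 with JUNBi (adjusted p = 0.15, and 4.0e-04 with 1 fit over all groups), so it is not shown to be particular to YAPi.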

How the results depend on the processing

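Counts of calls within 1.5 times the reported one held for most settings. The 1 call among the knockdowns in ETH became 2 with edgeR, 3 with a mean count of at least 10 and 4 with 1 fit over all groups. The 1 interaction call became 0 with edgeR, 2 with the mean count filter and 3 with 1 fit. The 4 calls among the set 1 knockdowns became 1 with TMM size factors, 1 with the mean count filter and 1 with effective length offsets. The 26 calls against the set 1 controls became 5 with the controls of both sets and 17 with the replicate block. NFKB1 in YAPi_TAZi against the set 1 Ctrli (-0.56) turned to 0.026 with effective length offsets (adjusted p = 0.96) and to 0.033 with the controls of both sets (adjusted p = 0.98). Leaving out 1 library gave 1 to 2 calls for TAM under Ctrli, 0 to 1 for the knockdowns in TAM, 1 to 3 for those in ETH, 0 to 3 for TAM under knockdown, 0 to 6 for the interactions, 0 in set 2, 2 to 26 against the set 1 controls and 0 to 3 among the set 1 knockdowns; a lone library is then assumed to vary like the others. The causes were not tested.

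Same-numbered libraries share only a number in the labels. With the replicate block there were 3 calls for TAM under Ctrli, 3 for the knockdowns in TAM, 1 for those in ETH, 5 for TAM under knockdown, 1 interaction and 6 among the set 1 knockdowns, where the correlation of same-numbered deviations was at least 0.681. No paired analysis was possible in set 2 because its controls and knockdowns share no replicate number. Without the 7 RNAs, 118 of 180 group means in TPM moved by more than 1 SD. In the set 1 knockdowns BCL3 had 8 to 23 and TNFAIP3 10 to 56 counts per library, which limits both.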
